A study of Rattus norvegicus with 8 samples.

Results

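Of 12407 genes tested in H9C2 cells, 657 (5.3%) moved in the same direction under all 3 PPARα constructs relative to cells that received YFP alone. They were chosen by 3 conditions. The mean of the wild-type (WT), S280A and S280D groups differed from YFP at an adjusted p below 0.05 (edgeR quasi-likelihood test, Benjamini-Hochberg adjustment over all genes tested). The 3 constructs had log2 fold changes of 1 sign, and all 6 construct libraries lay beyond both YFP libraries in TMM-scaled CPM, which are reads of a gene scaled to a fixed library total. Of these shared genes, 317 were higher with the constructs (2.56% of genes tested) and 340 were lower (2.74%). The conditions do not ask for a call in each construct. S280A taken singly differed from YFP at an unadjusted p below 0.05 (edgeR) in 175 of the higher and 154 of the lower genes. Over all genes tested it did so in 1439.

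H9C2 is a rat cardiomyoblast line. The cells were transduced for 2 days with pDC316 vectors that carried YFP fused to PPARα in its wild-type form, YFP fused to the S280A form that cannot be phosphorylated at residue 280, YFP fused to the S280D form that mimics phosphorylation there, or YFP by itself. Each of the 4 groups held 2 libraries of poly(A) RNA. All 8 libraries came from transduced, YFP-expressing cells of the same line, so the comparison is between YFP joined to PPARα and YFP without it, and no untransduced cells are among them. Whether both libraries of a group stem from independent cultures is not stated in the labels, and each p-value reflects variation among these libraries, which may be technical. They also do not name the species of the PPARα insert, the promoter that drives it or any added ligand, and reads of delivered and endogenous Ppara are counted together.

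PPARα, encoded by Ppara, is a nuclear receptor that is activated by fatty acids and by fibrate drugs. It pairs with a retinoid X receptor and binds DNA elements made of a direct repeat of AGGTCA with a single base between the copies. In heart and liver it is known for raising genes of fatty acid import, mitochondrial and peroxisomal β-oxidation and ketone body synthesis, and for damping inflammatory transcription.

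Ppara marked the construct libraries without exception. The gene (chromosome 7, 126619196 to 126681752, Rnor_6.0) was read at 74.4 and 59.5 CPM in the YFP libraries. It reached 12382 and 24134 CPM with WT, 17400 and 13736 CPM with S280A, and 17911 and 17693 CPM with S280D. The groups did not overlap, and the difference in the mean was 8.0 ± 0.33 (log2, SE), or 257-fold (adjusted p = 5.44e-07, edgeR). The 3 constructs were not told apart by level: their log2 fold changes were 8.09, 7.86 and 8.06, and the test among them gave an adjusted p of 0.72. Intron reads of Ppara were higher as well, by 3.6 on the log2 scale (adjusted p = 2.43e-04).

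Library totals ranged from 14018785 to 39526013 exon reads. Intron reads made up 10.99 to 11.9% of reads in the YFP libraries and 14.23 to 15.85% in the construct libraries, a difference of 3.285 percentage points with no overlap (exact permutation test, two-sided, p = 0.07143, the smallest that 2 against 6 libraries allow). The column headers name 2 lanes, and the groups are uneven between them. Both YFP libraries stand in lane 1 with 1 library each of S280A and S280D, and both WT libraries stand in lane 2. A comparison of WT with YFP alone therefore cannot be told apart from lane, while the 3-construct mean can be fitted with lane as a covariate. The lane term then rests only on the difference between the 2 libraries within S280A and within S280D. WT is assumed to shift with lane in the same way, so the fit cannot free the WT part of the mean from lane. Of the genes named below as rising or falling in the mean, the 20 shared genes listed together near the end passed 0.05 with that covariate, and every other one lost its call there.

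The mean of the 3 constructs differed from YFP for 1600 genes (12.9% of those tested), with 971 higher (7.83%) and 629 lower (5.07%). Without any test, the 3 constructs had 1 sign for 2542 genes on the higher side (20.5%) and 3083 on the lower side (24.8%), and all construct libraries lay beyond YFP for 670 higher (5.4%) and 954 lower genes (7.69%). Not all called genes moved with every construct. Of the 971 higher genes, 257 had a construct of the opposite sign, which was S280A in 256 of them, and a further 397 had libraries that overlapped with YFP. Of the 629 lower genes, 35 had the opposite sign with S280A and 254 overlapped. S280A against YFP alone gave 5 calls (0.0403%), WT gave 2437 (19.6%) and S280D gave 3815 (30.7%). These 3 comparisons share the YFP libraries. A stricter reading, which takes the largest of the 3 p-values of each gene, left 191 higher (1.54%) and 163 lower genes (1.31%) at an unadjusted 0.05. After adjustment over all genes it left 3 higher (0.0242%) and 0 lower, all 3 of them named further on.

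**Figure D1:**
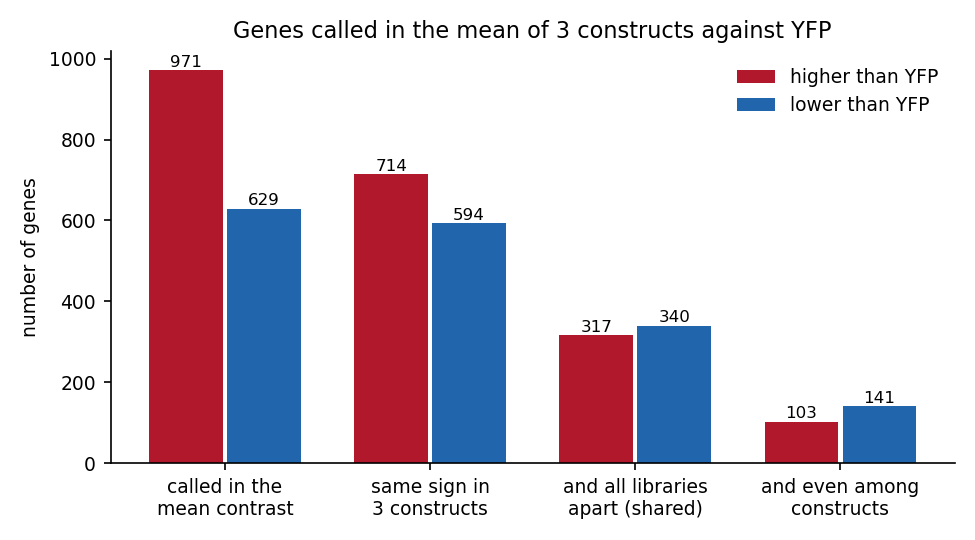
Number of genes (vertical axis) called in the 3-construct mean against YFP and left after each further condition, in red for genes higher than YFP and blue for lower ones. The 971 higher calls drop to 714 with 1 sign and 317 shared, and the 629 lower calls to 594 and 340.

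The calls depended on the lane term and on single libraries. Once lane entered the model, 19 genes were higher and 4 lower, of which 16 and 4 were shared genes. The median size of change of the shared higher genes was 0.78 (log2) in the full comparison and 0.74 with the covariate. It was 0.76 when only the 4 lane 1 libraries were compared, which hold no WT. For the shared lower genes these medians were 0.52, 0.48 and 0.41, and over all genes tested 0.24, 0.23 and 0.20. The shared genes were chosen on these same libraries, which fixes their sign in lane 1 and favours a large size. Their medians therefore cannot show whether the changes are free of lane. When the 6 construct libraries were fitted as 1 group, so that differences among constructs count as spread, 2 genes were called, Ppara and RGD1564839. Shared calls fell to 136 higher and 84 lower without YFP replicate 1, to 172 and 103 without WT replicate 1, to 253 and 160 without WT replicate 2, to 231 and 202 without S280A replicate 1 and to 231 and 135 without S280D replicate 1. Without YFP replicate 2 there were 534 and 226, and without S280A replicate 2, which lay nearest to YFP for many genes named here, 982 and 921.

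The shared direction went with unequal size. S280A had the smallest of the 3 changes in 261 of the 317 higher and 273 of the 340 lower genes, and S280D had the largest in 197 and 200. Over all 12407 genes tested S280A had the smallest in 7230 and S280D the largest in 6288. Of genes called but not shared, S280A had the smallest in 643 of 654 higher and 283 of 289 lower ones. The median log2 fold change of the higher genes was 0.88 with WT, 0.45 with S280A and 0.93 with S280D, and that of the lower genes was -0.58, -0.31 and -0.64. The test among the 3 constructs passed for 152 of the higher and 73 of the lower genes, against 31.6% of all genes tested. A change of at least 2-fold was seen for 113 higher and 31 lower genes.

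A gene was called even where the test among constructs did not pass and the smallest of the 3 changes was at least 0.5 times the largest. By that description 103 higher (0.83%) and 141 lower genes (1.14%) were even. Failing to pass that test with 2 libraries a group does not show that the constructs act alike. At the edge of the 0.05 threshold lay Dynll2 (log2 fold change -0.34, adjusted p = 0.04965) and Pigp (0.43, adjusted p = 0.04999) on the inside, and Cmss1 (-0.47, adjusted p = 0.05003) and Cotl1 (-0.68, adjusted p = 0.05025) on the outside. These 4 were picked by their p-values only.

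**Figure D2:**
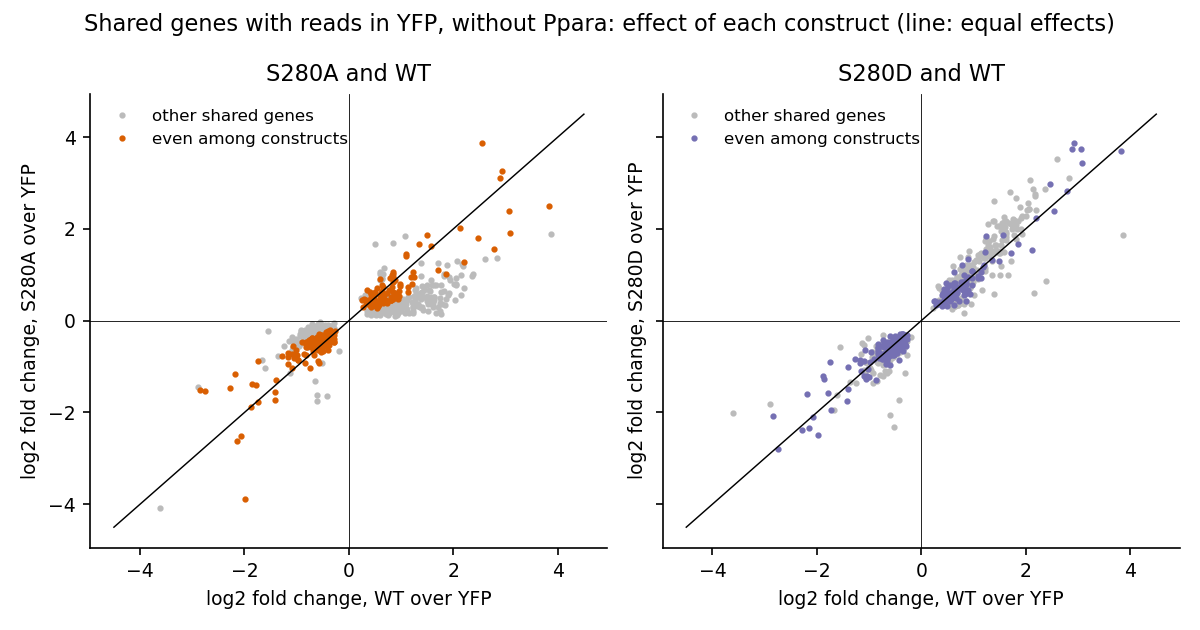
Log2 fold change over YFP of shared genes with reads in YFP, without Ppara, with WT on the horizontal axis and S280A (left) or S280D (right) on the vertical axis, even genes coloured and the line marking equal change. Most higher genes lie below the line for S280A, whose median is 0.45 against 0.88 with WT, and near it or above for S280D, at 0.93.

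Cav2, Angptl4, Slc18a2 and Ccl2 were among the largest shared increases with an assigned symbol and a mean of at least 1 CPM. Cav2 encodes caveolin 2, a coat protein of the small membrane pits called caveolae (chromosome 4, 44573264 to 44580638, Rnor_6.0). It was read at 7.61 and 7.31 CPM with YFP, 48.4 and 42.5 with WT, 23.0 and 14.5 with S280A, and 78.9 and 92.8 with S280D. Every construct library was above both YFP libraries, with S280D highest and S280A lowest. Cav2 rose by 2.49 ± 0.19 (log2, SE, adjusted p = 1.83e-04, edgeR), and by 2.19 with the lane covariate (adjusted p = 0.00107).

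Angptl4 encodes a secreted inhibitor of lipoprotein lipase and is a classical PPAR target (chromosome 7, 18627808 to 18634079, Rnor_6.0). Its level was 3.34 and 1.99 CPM with YFP, 7.60 and 9.65 with WT, 7.72 and 4.91 with S280A, and 19.0 and 18.3 with S280D. The lowest construct library, S280A replicate 2, was still above both YFP libraries. Angptl4 rose by 1.93 ± 0.25 (log2, SE, adjusted p = 0.00489, edgeR). The adjusted p with the lane covariate was 0.0536 at a change of 1.76.

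The promoters of these 2 genes are shown because Angptl4 is the largest shared increase among the PPAR targets named here, and Cav2 is the largest beside Ppara that stayed called with the lane covariate and carries a copy of AGGTCA. The sequences are those of RefSeq, GRCr8, from 250 bases before to 50 after the annotated start, 5′ to 3′ on the strand of the gene, with the copy of AGGTCA in capitals.
Angptl4 (chr7:15258632-15258931, minus strand): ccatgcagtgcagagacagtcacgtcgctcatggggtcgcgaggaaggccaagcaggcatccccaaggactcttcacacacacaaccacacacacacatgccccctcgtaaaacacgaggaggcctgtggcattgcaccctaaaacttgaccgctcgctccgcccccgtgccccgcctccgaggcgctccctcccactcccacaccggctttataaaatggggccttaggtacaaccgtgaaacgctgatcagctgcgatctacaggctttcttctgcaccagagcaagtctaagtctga
Cav2 (chr4:46582431-46582730, plus strand): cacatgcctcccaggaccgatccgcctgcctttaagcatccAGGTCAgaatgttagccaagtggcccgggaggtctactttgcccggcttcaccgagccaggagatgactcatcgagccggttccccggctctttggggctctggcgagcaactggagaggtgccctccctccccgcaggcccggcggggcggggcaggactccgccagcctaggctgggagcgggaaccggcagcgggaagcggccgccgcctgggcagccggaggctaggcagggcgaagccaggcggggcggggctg
The copy in Cav2 begins 209 bases before the start, and the Angptl4 window holds none of the motifs searched.

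Windows of the same length were matched for 206 of the 317 shared higher and 231 of the 340 shared lower genes and searched on both strands. The full repeat AGGTCANAGGTCA was found in 0 of each, and in 3 of 9010 windows of genes tested (0.0333%). The looser NGGNCANAGGNCA, which contains the full repeat as a special case, was found in 0 higher and 3 lower genes (1.299%), against 0.6215% of genes tested. A single AGGTCA was present in 18 higher (8.738%) and 33 lower genes (14.29%), against 11.28% of genes tested. A match is a description of letters, and these windows do not reach distal elements.

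Slc18a2, the vesicular monoamine transporter, was read at 0.293 and 0.920 CPM with YFP and at 1.21 to 5.87 CPM in the construct libraries, a rise of 2.43 ± 0.39 (log2, SE, adjusted p = 0.00782, edgeR). Ccl2, a chemokine that draws monocytes, was at 0.351 and 0.102 CPM with YFP, 3.75 and 2.80 with WT, 0.772 and 0.886 with S280A, and 0.774 and 0.865 with S280D. It was the largest increase by this rule at 2.53 ± 0.52 (log2, SE, adjusted p = 0.0149, edgeR), and the only one of these 4 with WT far above both other constructs. Vps13a, a lipid transfer protein gene, rose from 11 and 11.2 CPM to 16.4 to 71.5 CPM, by 1.76 ± 0.19 (log2, SE, adjusted p = 0.00155, edgeR).

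The other 6 large increases named here were low in level. They were Ccdc138, the protease gene Tmprss11a, and the zinc finger genes Zfp120, Zfp677, Giot1 and Zfp709l1. Their log2 fold changes lay between 1.91 (Zfp709l1) and 2.42 (Ccdc138), and their YFP levels between 0.176 CPM (Ccdc138 and Zfp120) and 1.84 CPM (Zfp677). At these levels a value rests on few reads, and 45.6% of the reads of Zfp709l1 were unique.

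Among shared genes with an assigned symbol and at least 1 CPM, the 12 largest decreases were smaller than the 12 largest increases. Marcksl1, an actin-regulating substrate of protein kinase C (chromosome 5, 147714163 to 147716485, Rnor_6.0), was at 8.20 and 13.5 CPM with YFP, 2.60 and 2.15 with WT, 4.07 and 5.72 with S280A, and 3.14 and 4.10 with S280D. It fell by 1.65 ± 0.22 (log2, SE, adjusted p = 0.00489, edgeR), and its groups did not overlap. Only 34.7% of its reads were unique, and on unique reads its change was -0.69 with an adjusted p of 0.11, so the call does not hold there.

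The feature named Rps4x, after a ribosomal protein gene, fell from 50.8 and 44.4 CPM to between 8.80 and 23.5 CPM, by 1.59 (log2). It lies on chromosome 4 (35729628 to 35730599, Rnor_6.0) with 972 bases of exon. Only 0.332% of its reads were unique and it had no value on unique reads, so which locus its reads report is uncertain. Polr2f, a subunit common to the RNA polymerases, fell from 36.1 and 38.8 CPM to between 16.9 and 27.8 CPM, by 0.92. Isca2, which assembles mitochondrial iron-sulfur clusters, fell from 110 and 141 CPM to between 59.7 and 92.3 CPM, by 0.91. Both were lowest in WT and S280D libraries and less low in S280A.

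Tpi1, the triose phosphate isomerase of glycolysis, fell from 146 and 130 CPM to between 54.4 and 94.7 CPM, by 0.85, with 1.24% of its reads unique and a change of -0.58 (adjusted p = 0.24) on those. Snrpn and Rnasek also had few unique reads (11.3% and 28.5%), and fell by 0.88 and 0.83. On unique reads their changes were -1.06 and -0.72 (adjusted p = 0.00255 and 0.0286, edgeR), so these calls held there. The other 5 of the 12 were Ddn, Trnp1, Tp53i13, Rit1, a small GTPase, and Six5, a homeobox factor. They fell by between 0.81 (Six5) and 1.18 (Ddn) on the log2 scale. None of these 12 decreases passed 0.05 with the lane covariate.

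**Figure D3:**
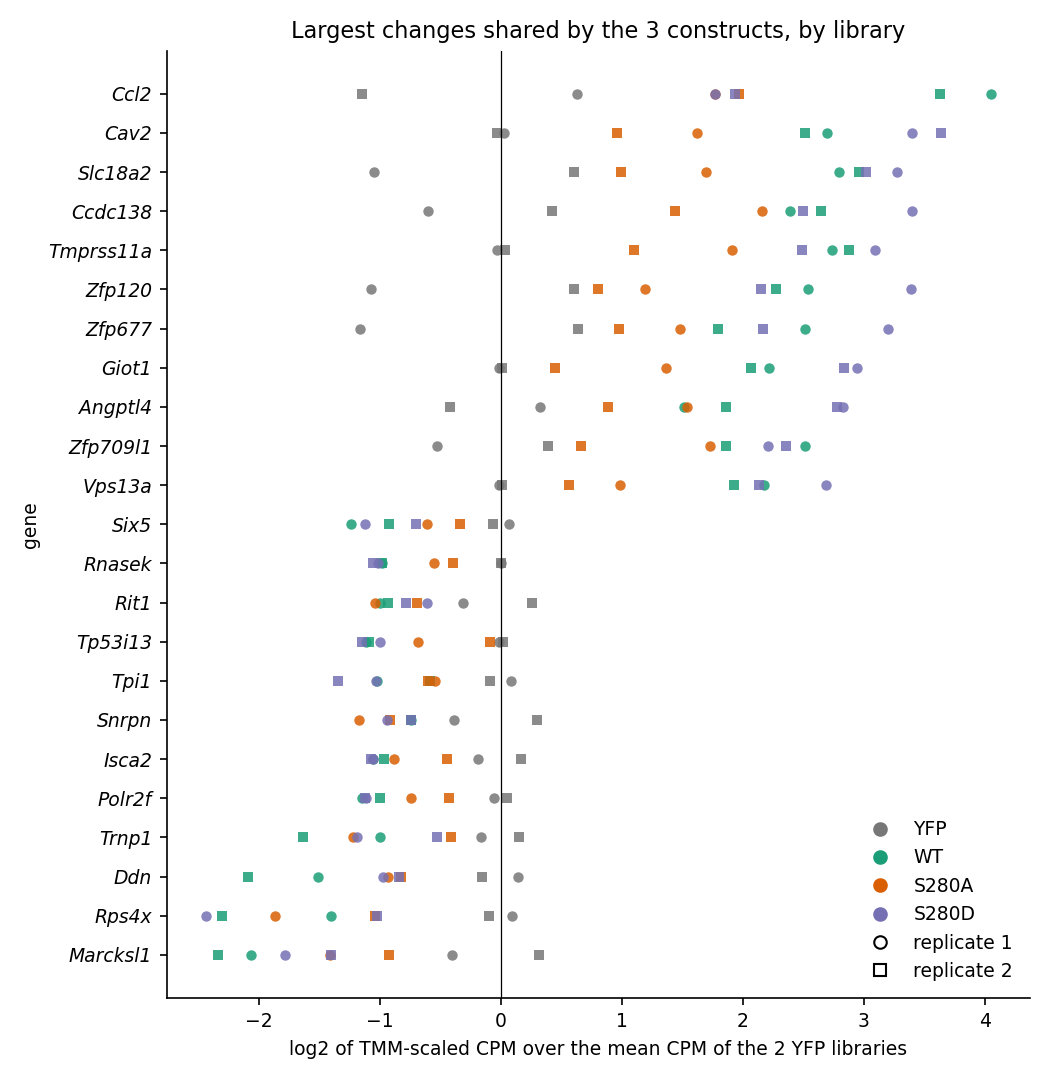
Level of the largest shared increases and decreases named here in each of the 8 libraries, as log2 of TMM-scaled CPM over the mean of both YFP libraries, with colour for group and shape for replicate. The genes were chosen to have every construct library on 1 side of both YFP libraries, and within that choice S280A libraries lie nearest to YFP for most genes.

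Among the even genes, RGD1564839 changed by similar amounts with each construct. It was read at 5.91 and 5.72 CPM with YFP, 18.6 and 16.0 with WT, 17.1 and 19.0 with S280A, and 18.7 and 23.6 with S280D. Its 3 changes of 1.57, 1.63 and 1.86 (log2) gave a mean of 1.69 ± 0.16 (SE, adjusted p = 0.00113, edgeR), and the test among constructs gave an adjusted p of 0.37. It passed the adjusted largest p, the lane covariate and the fit with 1 construct group. It is an unnamed locus of 375 bases of exon with 14.9% of its reads unique (chromosome 13, 53283855 to 53284229, Rnor_6.0).

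LOC100912604 was the other gene beside Ppara to pass the adjusted largest p. It was at 91.1 and 98.9 CPM with YFP, 186 and 214 with WT, 360 and 323 with S280A, and 219 and 178 with S280D. It rose by 1.33 ± 0.12 (log2, SE, adjusted p = 7.71e-04, edgeR). Here S280A was the highest construct. The test among constructs gave an adjusted p of 0.00508 (edgeR) and does not say which construct differs. Only 0.219% of its reads were unique, and on those its change was 1.45 with an adjusted p of 0.12, so the call does not hold there.

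The largest even increases with an assigned symbol were Ccdc138, Tmprss11a, Zfp709l1, Ccne2, Ccdc62 and Zfp192. Ccne2, a cyclin that drives entry into S phase, was at 0.878 and 1.38 CPM with YFP, 4.15 and 4.11 with WT, 2.53 and 2.09 with S280A, and 4.69 and 2.50 with S280D. It rose by 1.52 ± 0.34 (log2, SE, adjusted p = 0.0204, edgeR), and its 3 changes were 1.85, 1.02 and 1.68. With the same limits, the largest even decreases were Marcksl1, Rps4x, Ddn, Trnp1, Isca2 and Snrpn. Snrpn is the only one of these 12 in which S280A had the largest change, at -1.04 against -0.74 with WT and -0.84 with S280D.

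PPAR target genes were the first list considered, with 30 of its 43 symbols tested. Of these 9 were called higher (30%) and 2 lower (6.67%), where 7.83% and 5.07% of all genes were. The same shares over all genes are the ones to set beside every list below, and no list was tested for enrichment. By the shared conditions 6 were higher and 1 lower. Constructs of opposite sign were seen in 8 of the 30, against 6782 of all 12407 genes tested. The median log2 fold change was 0.23, and that of all genes was -0.01. The members and this list were chosen with results of these data known, so the counts are descriptions.

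The other shared PPAR targets named here changed by less than 2-fold in the mean. Cpt1b, the muscle form of the enzyme that admits long-chain fatty acids to mitochondria, was at 4.22 and 5.06 CPM with YFP, 7.45 and 8.70 with WT, 5.97 and 5.07 with S280A, and 9.36 and 10.3 with S280D. One S280A library lay just above the higher YFP library. Cpt1b rose by 0.71 ± 0.18 (log2, SE, adjusted p = 0.0293, edgeR), with S280A smallest at 0.25. Acadl, the long-chain acyl-CoA dehydrogenase, was at 35 and 34.2 CPM with YFP and between 44.1 and 53.7 CPM in the construct libraries. It rose by 0.49 ± 0.11 (adjusted p = 0.0178, edgeR) and was even, with changes of 0.45, 0.43 and 0.58.

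Hsdl2, a peroxisomal protein of the short-chain dehydrogenase family, rose by 0.81 ± 0.14 (adjusted p = 0.00911, edgeR), from 10.8 and 10.5 CPM to between 12.9 and 26.8 CPM. Acot2, a mitochondrial acyl-CoA thioesterase, rose by 0.39 ± 0.11 (adjusted p = 0.0354, edgeR) with 45.5% of its reads unique. Acaa1a, the peroxisomal thiolase, went the other way. It was at 14.3 and 14.2 CPM with YFP and between 7.60 and 12.6 CPM with the constructs, and fell by 0.55 ± 0.16 (adjusted p = 0.0487, edgeR). Acot2 was named after its values were seen.

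Several well-known targets were not shared. Cat, Cpt1a and Ucp2, chosen after their values were seen, rose in the mean by 0.84, 0.60 and 0.48 (log2) at adjusted p of 0.0224, 0.0396 and 0.0459 (edgeR), but their libraries overlapped with YFP. The second lower call of the list, Slc25a20, the carnitine carrier, was chosen in the same way, with a change of -0.35 (adjusted p = 0.0449, edgeR) and libraries that overlapped. Plin2, a lipid droplet coat gene, had a log2 fold change of 0.18 (adjusted p = 0.20). Pdk4, Cd36, Fabp3 and Cyp4a1 were below the filter on low counts. No PPAR target passed with the lane covariate, where the median size of change over the list was 0.28 against 0.34 in the full comparison.

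**Figure D4:**
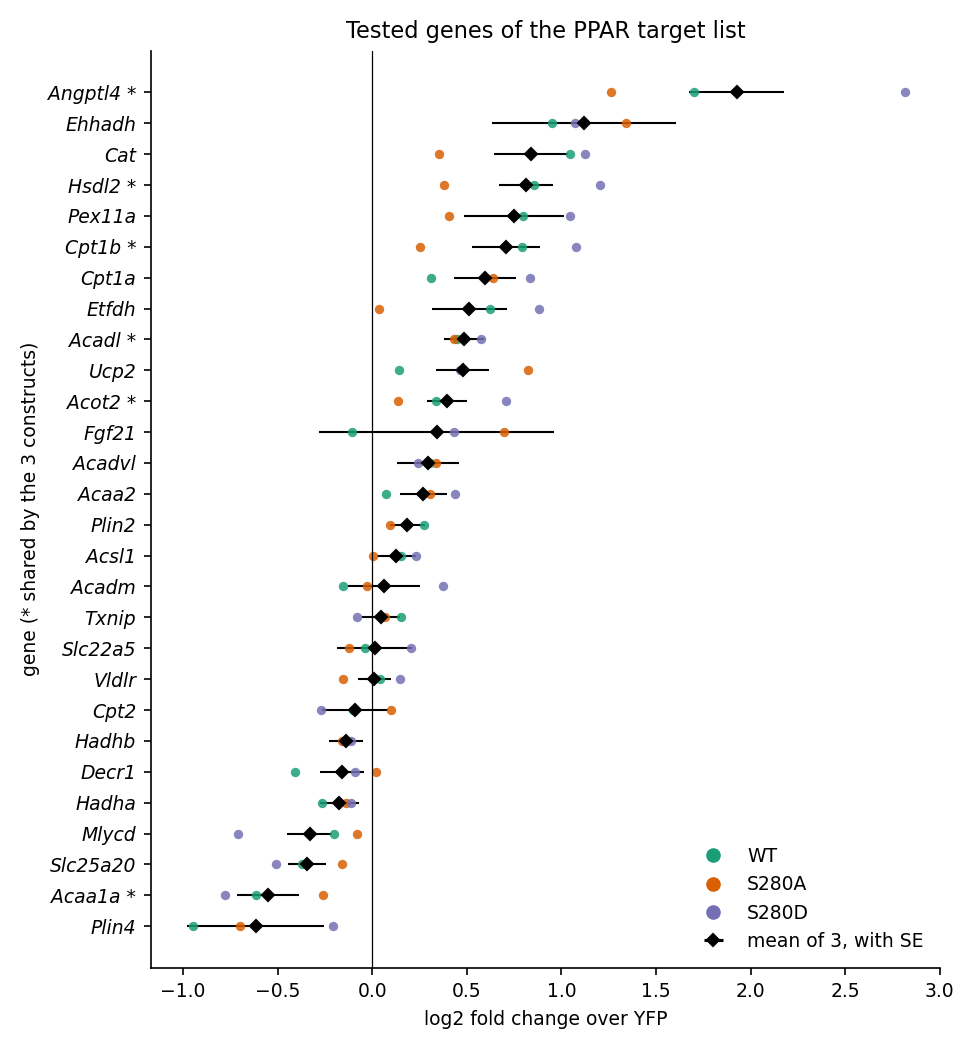
Log2 fold change over YFP of PPAR targets tested and reported here, with coloured points for the constructs, a black diamond for their mean and a bar for its SE, and an asterisk for shared genes. Angptl4 lies farthest to the right, with S280D at 2.81, and S280A is nearest to 0 in each of the shared genes drawn.

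The wider lipid lists had few calls, where 7.83% of all genes were higher and 5.07% lower. Of 21 mitochondrial fatty acid oxidation genes tested 3 were called higher (14.3%) and 1 lower (4.76%), with a median of -0.09, and the shared members were Cpt1b and Acadl. Of 19 peroxisomal oxidation genes 1 was called in each direction (5.26%), with Acaa1a shared. Of 14 genes of fatty acid uptake, Acsl4, an acyl-CoA synthetase, was called (0.79, adjusted p = 0.0168, edgeR), but it was -0.11 with S280A. Got2 of that list had a change of -0.28 (adjusted p = 0.0996).

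Of 24 genes of triglyceride synthesis and lipid droplets 0 were called higher and 2 lower (8.33%, against 5.07% of all genes), and none was shared. These were Agpat1, which makes phosphatidic acid (-0.57, adjusted p = 0.0125, edgeR), and Mgll, the monoglyceride lipase (-0.59, adjusted p = 0.0252, edgeR). With S280A they changed by 0.09 and -0.22. Of the reads of Agpat1 16.9% were unique, and on those its change was -0.56 (adjusted p = 0.0476, edgeR). Of 15 fatty acid synthesis genes, Hsd17b12 of the elongation cycle rose by 0.48 and the desaturase Scd2 fell by 0.45, both shared. Of 26 sterol genes Mvd was called lower at -0.56, with 0.01 for S280A, and Idi1 had a change of 0.96 (adjusted p = 0.0507). Of 18 nuclear receptors and cofactors 2 were called higher, and the acetyltransferase gene Ep300 was shared, at 0.45 (adjusted p = 0.0323, edgeR).

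Transcripts encoded by mitochondrial DNA were called higher throughout their list. All 11 tested were called, 4 of them shared, with a median of 0.89. Mt-atp6, a subunit of ATP synthase, was at 273 and 305 CPM with YFP, 748 and 722 with WT, 488 and 341 with S280A, and 860 and 768 with S280D. It rose by 1.12 ± 0.14 (log2, SE, adjusted p = 0.00339, edgeR). Mt-nd2, Mt-nd3 and Mt-nd5, subunits of complex I, rose by 1.19, 0.64 and 0.89. None of the 11 passed with the lane covariate, where Mt-atp6 had an adjusted p of 0.0532. As a share of all exon reads, mitochondrial reads were 0.5059 to 0.6038% with YFP and 0.4903 to 1.655% with the constructs, with overlap (exact permutation test, two-sided, p = 0.2143). Because the libraries were poly(A) selected, the level of these transcripts also depends on how they were captured, which was not tested.

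Of 26 nuclear oxidative phosphorylation genes 0 were called higher and 5 lower (19.2%, against 5.07% of all genes), with a median of -0.24. The shared ones were Cyc1 of complex III, at -0.62, and the ATP synthase subunit genes Atp5a1 and Atp5o, at -0.48 and -0.47. With S280A these changes were -0.29, -0.12 and -0.24. Of 21 glycolysis genes 0 were called higher and 3 lower (14.3%, median -0.16), with Tpi1 and Pgk1 (-0.48) shared. Of 30 genes of pyruvate dehydrogenase and the TCA cycle 2 were higher (6.67%) and 4 lower (13.3%). Sdha, the flavoprotein of succinate dehydrogenase, was read at 50.6 and 51.7 CPM with YFP and between 34.4 and 40.2 CPM with the constructs. It fell by 0.46 ± 0.10 (adjusted p = 0.0193, edgeR) and was even, with changes of -0.49, -0.46 and -0.43. Mdh1 fell by 0.35, and Pdk3, a kinase that inhibits pyruvate dehydrogenase, rose by 0.50.

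Of 28 NF-κB and cytokine genes 8 were called higher (28.6%, against 7.83% of all genes) and 0 lower, with Ccl2, Tnfaip3 and Vcam1 shared (median 0.13). Tnfaip3, which ends NF-κB signalling, rose by 0.57 (adjusted p = 0.0216, edgeR). Vcam1, an adhesion molecule, was at 0.937 and 1.33 CPM with YFP and 5.00 and 5.18 with WT. It was at 1.90 and 1.45 with S280A and 1.89 and 1.55 with S280D, below both WT libraries. The test among constructs gave an adjusted p of 0.00668 (edgeR) and does not say which construct differs. The list's median was 0.53 with WT, 0.12 with S280A and 0.01 with S280D.

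Of 41 interferon response genes 11 were called higher (26.8%, against 7.83% of all genes) and 3 lower (7.32%, against 5.07%), with a median of 0.18 and with Rsad2, Gbp2, Gbp5 and Tlr3 among the shared higher genes and Bst2 shared lower. Gbp2 was named after its values were seen. Gbp5, a guanylate-binding protein gene, was at 8.26 and 6.85 CPM with YFP, 35.6 and 43.0 with WT, 16.4 and 14.1 with S280A, and 15.2 and 12.2 with S280D. It rose by 1.42 ± 0.17 (log2, SE, adjusted p = 0.00271, edgeR), and by 1.46 with the lane covariate (adjusted p = 0.0374). Rsad2, which encodes the antiviral enzyme viperin, rose by 0.88, Tlr3, a sensor of double-stranded RNA, rose by 1.16, and Bst2, which tethers budding virions, fell by 0.46. With the lane covariate their adjusted p were 0.0646, 0.0812 and 0.31. Of 12 class I antigen presentation genes 0 were called, and the 2 with the smallest p were Psmb9 (-0.44, adjusted p = 0.0551) and Erap1 (0.29, adjusted p = 0.0652).

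Among stress lists, 36 genes of the unfolded protein and integrated stress response gave 2 higher (5.56%) and 5 lower calls (13.9%), against 7.83% and 5.07% of all genes, with a median of -0.13. Atf4, the central transcription factor of that response, was at 956 and 1101 CPM with YFP, 712 and 757 with WT, 782 and 864 with S280A, and 687 and 706 with S280D. It fell by 0.46 ± 0.09 (log2, SE, adjusted p = 0.0147, edgeR) and was even. Ddit4 fell by 0.65 and Manf by 0.34, while Slc7a11, the cystine transporter, rose by 1.10. The S280A changes of these genes were -0.51, -0.15 and 0.23. Of 15 heat shock genes 0 were called, with Chordc1 (0.48, adjusted p = 0.0616) and Dnaja1 (0.32, adjusted p = 0.14) at the smallest p. Of 27 NRF2 and antioxidant genes 2 were higher (7.41%) and 1 lower (3.7%), and Slc7a11 was the shared one.

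Of 37 cell cycle genes 8 were called higher (21.6%, against 7.83% of all genes) and 0 lower, with a median of 0.17. Shared were Ccnb1, Ccne2, Cdc25c and Cenpe (10.8%, against 2.56% of all genes). Cenpe, a kinetochore motor, was at 7.09 and 9.35 CPM with YFP, 30.2 and 29.7 with WT, 12.5 and 10.1 with S280A, and 45.6 and 28.3 with S280D, and rose by 1.5 ± 0.21 (log2, SE, adjusted p = 0.00504, edgeR). Ccnb1, the mitotic cyclin, rose by 0.51 and Cdc25c, its phosphatase partner, by 0.61, and both were even. Of 24 p53 targets 3 were higher (12.5%) and 2 lower (8.33%), and the cell cycle inhibitor gene Cdkn2a was shared at -0.57.

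Of 34 extracellular matrix genes 3 were called in each direction (8.82%), against 7.83% and 5.07% of all genes. Tnc, the matrix glycoprotein tenascin C, rose by 0.47 and Col6a1 fell by 0.49, and both were shared. Of 22 immediate early genes 3 were higher (13.6%) and 2 lower (9.09%), with Klf4 (0.40), Dusp6 (0.46) and Fosl2 (-0.59) shared. Of 36 cytosolic ribosomal protein genes 1 was higher (2.78%) and 7 lower (19.4%, against 5.07% of all genes), with a median of -0.22 and with Rpl13a and Rps14 among the shared, both at -0.58. Of their reads 34.5% and 0% were unique, so the origin of most of these reads is uncertain. On unique reads Rpl13a changed by -0.82 (adjusted p = 0.00272, edgeR), while Rps14 had none to test.

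Neither the clock nor the autophagy list held a shared gene. Clock was called at 0.83 and Atg12 at 0.47, with -0.13 and 0.00 for S280A. The next smallest p-values in these lists were those of Tef (-0.30, adjusted p = 0.087) and Hexa (-0.26, adjusted p = 0.11).

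The 20 shared genes that were also called with the lane covariate, named here after their values were seen, mostly had their smallest change with S280A. Beside Ppara, Cav2, Vps13a, Gbp5, Cenpe, RGD1564839 and LOC100912604 they included Samd9l, Denr, Arhgap5, Mybl1, Sp3, Yes1, Manea, Zfp945 and AABR07001168.1 as increases. Samd9l, an interferon-inducible growth regulator, was at 65.7 and 52.0 CPM with YFP, 262 and 216 with WT, 94.5 and 66.3 with S280A, and 369 and 252 with S280D. It rose by 1.63 ± 0.19 (log2, SE, adjusted p = 0.00271, edgeR). Denr, a factor that helps ribosomes to start again after short reading frames, was at 75.5 and 65.5 CPM with YFP, 243 and 178 with WT, 148 and 113 with S280A, and 271 and 305 with S280D. It rose by 1.5 ± 0.15 (adjusted p = 0.00142, edgeR), and its S280A change was 0.89.

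Sp3, a transcription factor, Yes1, a Src-family kinase, Arhgap5, a GTPase-activating protein, Mybl1, a MYB-family factor, and Manea, a glycan-trimming mannosidase, rose by 1.34, 1.33, 1.41, 1.39 and 1.32. Their S280A changes were 0.37, 0.18, 0.37, 0.34 and 0.21, and the test among constructs passed for all 5. Of the reads of Sp3 44.1% were unique. In Manea 1 S280A library, at 15.5 CPM, matched the YFP libraries to 3 digits. The 4 decreases were LOC100363537, LOC683961, Rplp1_2 and AABR07042903.1, at -2.23, -1.42, -2.05 and -1.16. Their unique reads were 0.982%, 10.1%, 14.7% and 10.5% of the total, so which locus they report is uncertain.

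Intron reads of the same libraries gave a readout that the choice of shared genes did not use. Over all 12988 genes with enough intron reads, 68 were called higher (0.524%) and 233 lower (1.79%). Of 246 shared higher genes with enough intron reads 191 had a positive intron change (77.64%), and of 260 shared lower genes 190 had a negative one, which leaves 26.92% positive. Of all 9892 genes tested in both, 50.32% were positive. Among genes called but not shared, 84.12% of the higher and 18.07% of the lower ones were positive, so this was not particular to shared genes. Calls were few: 10 higher and 1 lower of the shared higher genes, and 0 higher and 11 lower of the shared lower genes. Rsad2 (0.91, adjusted p = 0.0235), Samd9l (1.14, adjusted p = 0.0144) and Yes1 (0.78, adjusted p = 0.032) were called higher in introns, and Arhgap5 was called lower (-0.80, adjusted p = 0.0265) against its exon reads. Exon and intron reads come from the same RNA, so library effects are common to both.

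No marker gene of another cell type was called. Summed levels of the 28 cardiomyoblast and striated muscle markers were 762 to 841 CPM with YFP and 543 to 841 CPM with the constructs. Of these 12 passed the filter, with Tnnt2, Tnnc1 and Acta1 above 70 CPM in every library and Nkx2-5, Myl7 and Mb below 0.2 CPM. Fibroblast and smooth muscle markers summed to 80130 to 87840 CPM with YFP and 57980 to 81800 CPM with the constructs, with overlap. The endothelial marker Emcn, the leukocyte marker Ptprc and the hepatocyte marker Ttr had 0 reads in all libraries. Other members of these lists were read. Flt1 of the endothelial list was at 61.4 to 76.3 CPM across the libraries. Cd14 of the macrophage and leukocyte list was at 19.9 to 25.2 CPM. Hepatocyte markers summed to 1.62 to 1.94 CPM with YFP and 2.21 to 3.38 CPM with the constructs, without overlap. Of these Apoa1 was the only one to pass the filter, with a log2 fold change of 0.83 (adjusted p = 0.0816, edgeR), and Alb was at most 0.12 CPM in any library. Endothelial, leukocyte and adipocyte markers overlapped between the groups. In bulk RNA, fewer cells of a type and less RNA per cell cannot be told apart.

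**Figure D5:**
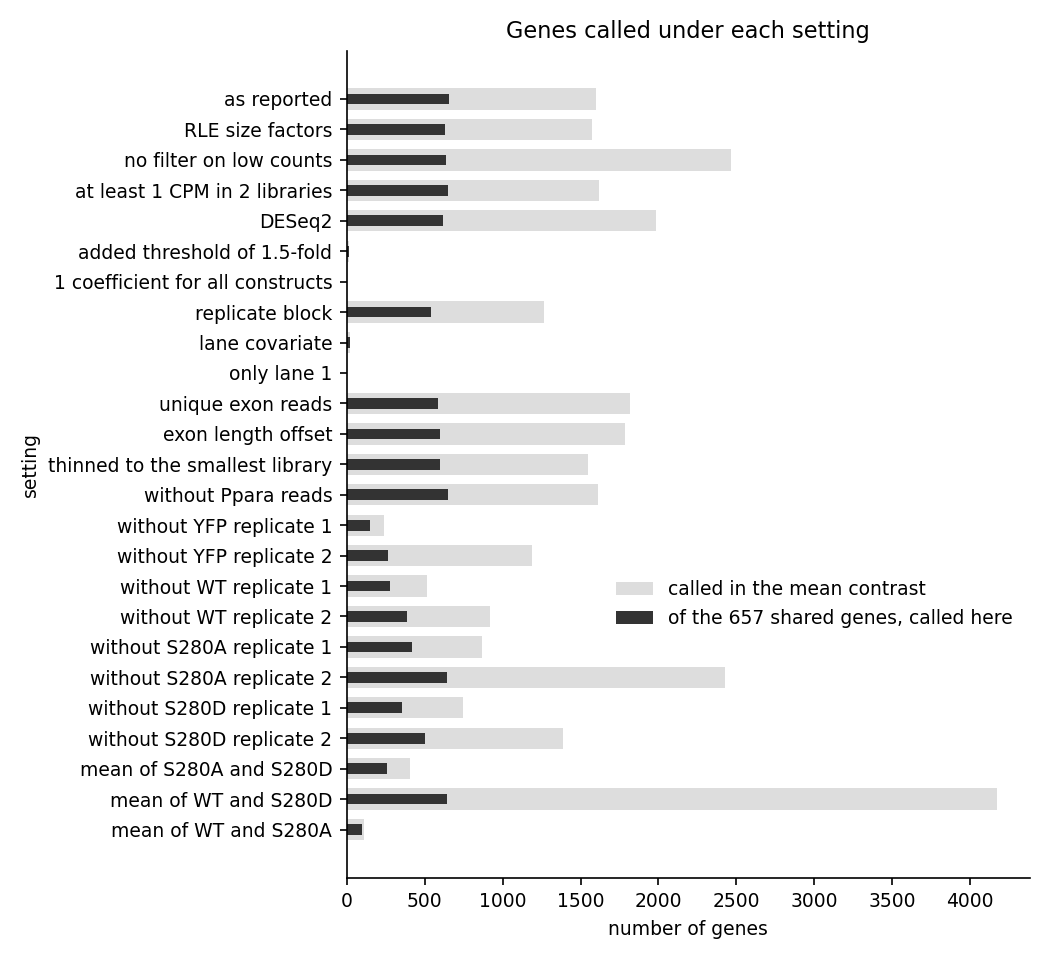
Number of genes called in the 3-construct mean, both directions together (grey bars), and how many of the 657 shared genes were called again (dark bars), under each analysis setting. The grey bar is 1600 as reported, and the dark bar shrinks to 20 with the lane covariate and 147 without YFP replicate 1.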

How the data were processed

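The authors deposited 1 table of raw counts for 8 libraries of poly(A) RNA from a strand-specific protocol with 15 PCR cycles, per the labels' protocols and the file headers. Per the file headers it gives total exon, unique exon and total intron reads per gene as unnormalized counts. The build is Rnor_6.0, per the submitters' processing notes. Which aligner was used, and whether counting respected strand, is not given in these sources. WT replicate 2 is numbered 3 in its description.

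Of 32258 features 20259 had exon reads, 18439 matched a RefSeq name (GRCr8, used for names and promoters only) and 12407 passed filterByExpr. Total exon reads were fitted with edgeR 4.0.16 (R 4.3.3; TMM, glmQLFit, 1 coefficient per group, 4 residual degrees of freedom). The contrast was the mean of WT, S280A and S280D minus YFP, two-sided. edgeR's common dispersion was 0.0176 (biological coefficient of variation 0.133). The smallest library had 14018785 exon reads, which limits genes near 1 CPM. The test was tried on counts simulated with equal changes in every construct and no lane effect. These settings differ from the data, so that trial is not used as evidence here. No library pair had the counts of a duplicate.

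Named were Ppara, the 12 largest shared increases and decreases and the 6 largest even ones with an assigned symbol and at least 1 CPM, genes passing the adjusted largest p, and up to 4 shared members of each list with the smallest p (2 members where none was shared). Members and lists were chosen with earlier results of these data known. Alternatives covered scaling, filters, DESeq2 1.42.0, a fold threshold, construct coding, replicate block, lane, unique reads, exon length, depth, Ppara reads, and leaving out libraries and constructs. The authors' own tests in the table were not used here. Some genes are left out of the text and figures and are not reported here.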

Additional observations from a re-analysis of the deposited data

Results flagged for a closer look

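The size of the change over YFP differed among WT, S280A and S280D for 51 of the genes named, by the edgeR quasi-likelihood test of equal constructs. Each is given by the adjusted p of that test. Over all genes tested the same test passed for 31.6%, and these genes were named partly for their change over YFP, with YFP libraries common to all 3 comparisons.

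Among PPAR targets the adjusted p was 0.00521 for Angptl4, 0.0124 for Hsdl2, 0.0152 for Acot2 and 0.0297 for Cpt1b, and S280D had the largest change in all 4. Among other lipid genes it was 0.00446 for Agpat1, 0.00466 for Acsl4, 0.0124 for Mvd, 0.0142 for Mgll and 0.0152 for Idi1.

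Among the shared genes called with the lane covariate it was 0.00275 for Cav2, 0.0032 for Manea, 0.00425 for Samd9l, 0.00425 for Gbp5, 0.00446 for Yes1, 0.00446 for Arhgap5, 0.00446 for Vps13a and 0.00466 for Cenpe. It was 0.00466 for Mybl1, 0.00477 for Sp3, 0.00508 for LOC100912604, 0.0052 for Denr, 0.00976 for Zfp945, 0.0121 for AABR07001168.1, 0.029 for AABR07042903.1 and 0.0378 for LOC683961. S280A had the largest change of the 3 in LOC100912604.

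Among inflammatory, interferon and antigen presentation genes it was 0.00466 for Rsad2, 0.00668 for Vcam1, 0.00855 for Ccl2, 0.0115 for Tlr3 and 0.0153 for Psmb9. Among stress, matrix, clock and autophagy genes it was 0.00475 for Slc7a11, 0.0052 for Chordc1, 0.00521 for Clock, 0.00782 for Tnc, 0.00912 for Atg12 and 0.0113 for Dnaja1.

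Among genes of energy metabolism it was 0.00533 for Mt-atp6, 0.00758 for Mt-nd2, 0.00781 for Mt-nd5, 0.0402 for Mt-nd3, 0.0084 for Atp5a1, 0.0359 for Tpi1, 0.0427 for Pdk3 and 0.0437 for Cyc1. For the remaining genes it was 0.00776 for Giot1, 0.0146 for Rps14, 0.0162 for Slc18a2, 0.0206 for Tp53i13, 0.0244 for Rnasek, 0.0322 for Rpl13a and 0.0324 for Polr2f.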

How the results depend on the processing

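Of the genes examined singly, none changed direction under a setting if called in the main fit or in that setting. Most were shared genes, whose choice largely fixes the sign when libraries, constructs or a lane are left out. On unique reads 631 of the 634 shared genes with a value kept their sign. The main counts were 971 higher and 629 lower genes, 317 and 340 of them shared, and 3 genes by the adjusted largest p. With RLE factors 632 of the 657 shared genes were called again, with DESeq2 618, with unique reads 582, with the lane covariate 20 and without YFP replicate 1 147. Without a filter 1498 and 965 genes were called, and 41 passed the largest p, against 11 with DESeq2 and 1 with unique reads. With an added threshold of 1.5-fold 11 and 3 genes were called, 10 and 3 shared, and 1 passed the largest p. With 1 coefficient for all constructs 2 and 0 were called, 2 and 0 shared. With the lane covariate 19 and 4 were called, 16 and 4 shared, and 1 by the largest p. Within lane 1 alone 1 and 0 were called, 1 and 0 shared, where Ppara was the gene. The lane 1 fit also coded S280A and S280D, with 1 library each, as 1 group, so differences between them count as spread there too. The mean of S280A and S280D gave 289 and 114 calls, 169 and 96 shared, the mean of WT and S280D 2216 and 1959, 2191 and 1902 shared, and the mean of WT and S280A 81 and 29, 72 and 29 shared. Leaving out 1 library at a time gave 152 to 1395 higher and 87 to 1033 lower calls, 136 to 982 and 84 to 921 shared, and 1 to 4 by the largest p. A group left with 1 library is assumed to vary like the others. Of 100 genes examined singly 72 lost the call with the lane covariate, 90 with 1 coefficient and 80 with the 1.5-fold threshold. The cause of these changes was not tested, except that the fold threshold asks more of each gene by construction.

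Same-number correlations of deviations were 0.206, 0.241 and 0.336 between constructs and -0.151, -0.295 and -0.235 between YFP and each construct, so the numbers were not taken to pair the libraries. With the replicate block 790 and 476 genes were called, 281 and 261 shared, and 1 by the largest p.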

Other observations

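Exon lengths are given as a description, with no test. The median was 2129 bases for shared higher and 1570 for shared lower genes, 3454 for genes called higher but not shared, 1655 for genes called lower but not shared, and 2314 for all genes tested. Genes with under 50% unique reads made up 13.25% of the shared higher and 17.94% of the shared lower genes, against 9.93% of all genes tested. Names without an assigned symbol were held by 61 and 71 of them.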
